A study of Homo sapiens with 3 samples.

Results

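RNU2-2P and RNU5B-1 are the genes of a U2 and a U5 small nuclear RNA (snRNA), RNA components of the major spliceosome. They were chosen by their uridylated reads, of which they had the most among the snRNA genes of the deposited table, made by CLIP (crosslinking and immunoprecipitation) of the exoribonuclease DIS3L2. The order holds for the windows listed there only, and other counts of the study were not used here. The deposited table lists 3 windows of 50 nt for these 2 genes, among 58 windows of 55 snRNA genes and 1533 windows in all. As a background, the other snRNA windows with U1, U2, U4 or U5 symbols were used, which came to 16 windows of 16 genes. All of the background symbols end in P, the mark of a pseudogene, and none is a U5 symbol. The gene symbol RNU2-2P also ends in P, although RefSeq now names the gene RNU2-2 and lists it as an snRNA.

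The cells, labelled HEK293 and named HEK293T-Rex in the study's methods, are a human embryonic kidney line made to overexpress DIS3L2 D391N. This mutant enzyme is catalytically inactive and binds RNAs with a 3′ oligo(U) tail without degrading them. According to the study's methods, the protein carried a FLAG tag and was expressed from an inducible stable insert. The recovered RNAs are thus those of a single engineered line under overexpression. The 3 CLIP libraries form a single group with no control, and their counts had been added together before deposit, so the spread between libraries is unknown and no test over samples could be made.

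U2 snRNA base-pairs with the branch site of an intron, and U5 snRNA holds the exon ends together through a conserved loop. Both are made by RNA polymerase II, leave the nucleus, receive a ring of Sm proteins at a uridine-rich site in the cytoplasm and have their 3′ ends trimmed. DIS3L2 is a cytoplasmic 3′ to 5′ exoribonuclease that prefers RNAs to which terminal uridylyltransferases have added uridines.

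The RNU2-2P stretches that the read counts refer to are shown first, read from GRCh37/hg19 on the strand of each gene, 5′ to 3′. For RNU2-2P the first 30 nt of each listed window are given, because its whole length lies in an annotated untranslated exon of WDR74. The capitals mark the bases that pair with the branch site in the former stretch (chr11:62609220-62609249, minus strand) and the last 9 nt of the annotated RNA in the latter (chr11:62609070-62609099, minus strand).
RNU2-2P inner window: GTAGTAtctgttcttatcagtttaatatct
RNU2-2P 3′ end window: GCACTCTCCcttcggggagagaacaaccgt

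The U+ fraction is the number of reads with an untemplated 3′ run of at least 4 T, divided by all uniquely mapped reads of the window. According to the study's methods, bound RNA was cut with RNase T1, which leaves a 3′ guanosine, and fragments were selected by size. A read without a tail may therefore end at a cut inside the RNA. Such reads cannot be told apart here from reads of untailed molecules, so the U+ fraction is a share of reads only. All windows have the same length, so the counts were not scaled by length. They were also not corrected for near-identical copies or for how much of a window lies inside its RNA, in which the windows differ. Brackets give the 95% interval by Wilson's method, and this is the counting error alone, because PCR copies of a molecule are not independent. RNU2-2P (ENSG00000222328) had its deepest window at chr11:62609200-62609249, here called the inner window. It held 678516 unique reads, of which 73651 were uridylated and 604865 had no tail. The U+ fraction was 10.9% (10.8 to 10.9%). This was the window with the most unique reads of all 1533 windows and the one ranked 4 by uridylated reads. The other listed window of the gene, at chr11:62609050-62609099, spans the 3′ end of the RNA. It held 3030 unique reads with 1236 uridylated and 1794 without a tail, a U+ fraction of 40.8% (39.1 to 42.6%). Within this gene the deep window therefore had the lower fraction.

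RNU5B-1 (ENSG00000200156) had a single listed window, at chr15:65597050-65597099. It held 19866 unique reads, with 7855 uridylated and 12011 without a tail. The U+ fraction was 39.5% (38.9 to 40.2%). This value lay close to that of the RNU2-2P 3′ end window. The difference, RNU5B-1 minus RNU2-2P 3′ end, was -1.25 percentage points, with a counting interval from -3.14 to 0.614. From the RNU2-2P inner window, in contrast, RNU5B-1 differed by 28.7 points (28.0 to 29.4).

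The order of the U+ fractions was thus RNU2-2P 3′ end, RNU5B-1 and RNU2-2P inner, in which the counting intervals of the former pair overlap. Whether that pair differs was not tested. The uridylated reads had another order, with RNU2-2P inner ahead of RNU5B-1 by 9.38 times and ahead of its own 3′ end window by 59.6 times. For reads without a tail the ratio of inner to 3′ end window was 337, and for all unique reads it was 224. The U+ fractions of the 2 windows of RNU2-2P differed by 29.9 points (28.2 to 31.7), a ratio of 3.76. Summed over both, RNU2-2P had 74887 uridylated of 681546 unique reads, or 10.99% (10.9 to 11.1%). That sum is in effect the inner window, which supplied 98.3% of the gene's uridylated and 99.6% of its unique reads. Without it the gene stood at 40.8%.

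**Figure D1:**
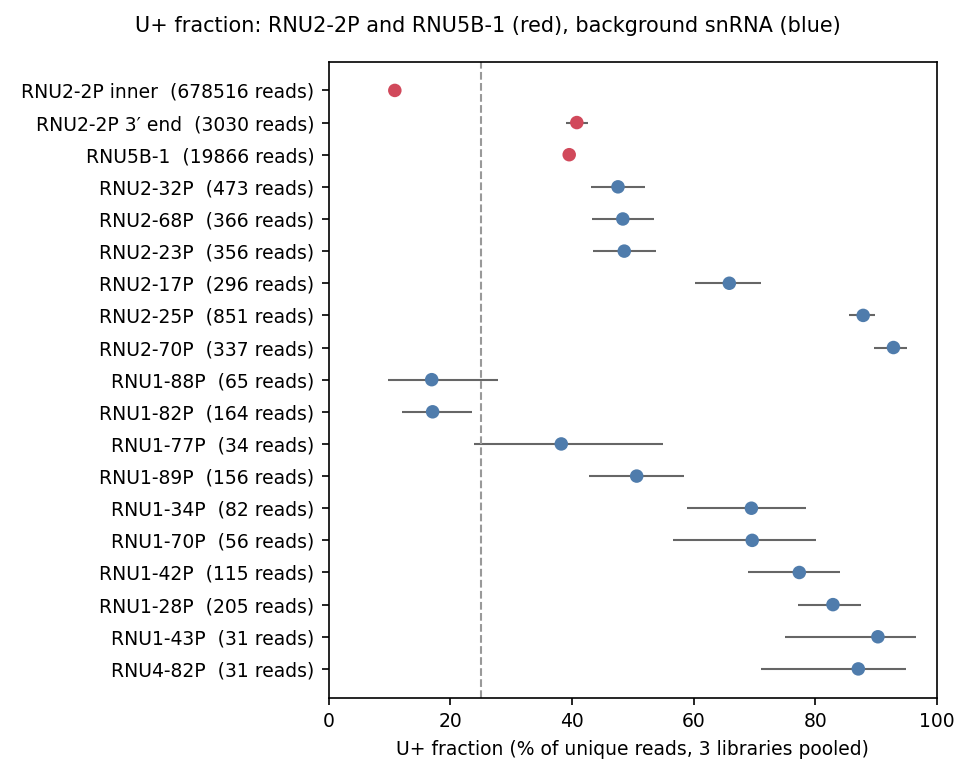
U+ fraction in percent of unique reads for the 3 windows of RNU2-2P and RNU5B-1 (red) and the 16 background snRNA windows (blue), with unique reads in brackets, 95% Wilson intervals as horizontal lines and the study's selection frequency of 25% as a dashed line. The RNU2-2P inner window has the lowest value at 10.9%, RNU5B-1 and the RNU2-2P 3′ end window lie together near 40%, and most background windows lie to the right of all 3.

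The choice of genes rested on the uridylated reads, so their large share of the class is a description of that choice. RNU2-2P held 75.1% of the uridylated reads of the snRNA class and RNU5B-1 7.88%, together 83.0% (82.8 to 83.2%) in 5.17% of its windows. Of the unique reads of the class, RNU2-2P held 93.6% and RNU5B-1 2.73%. The shares are of reads counted at the listed windows, and whether the RNU2-2P reads include reads of other U2 genes was not tested. Just inside the choice stood RNU5B-1 with 7855 uridylated reads. Just outside stood RNU11, the minor spliceosome's counterpart of U1, with 4041, followed by RNU12, the counterpart of U2, with 2275 over 3 windows.

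Because the inner window is so deep, it weighs on every pooled value. It held 31.6% of all reads without a tail in the table. The snRNA class had a pooled U+ fraction of 13.7%, and 52.7% without this window. For all 1533 windows the pooled fraction was 28.6%, and 34.6% without it. The median over windows, which gives each window the same weight, was 78.2% for snRNA and 70.2% for all windows, so all 3 windows of RNU2-2P and RNU5B-1 were below both medians. By U+ fraction they were the windows ranked 2, 9 and 10 from the lowest among the 58 snRNA windows.

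**Figure D2:**
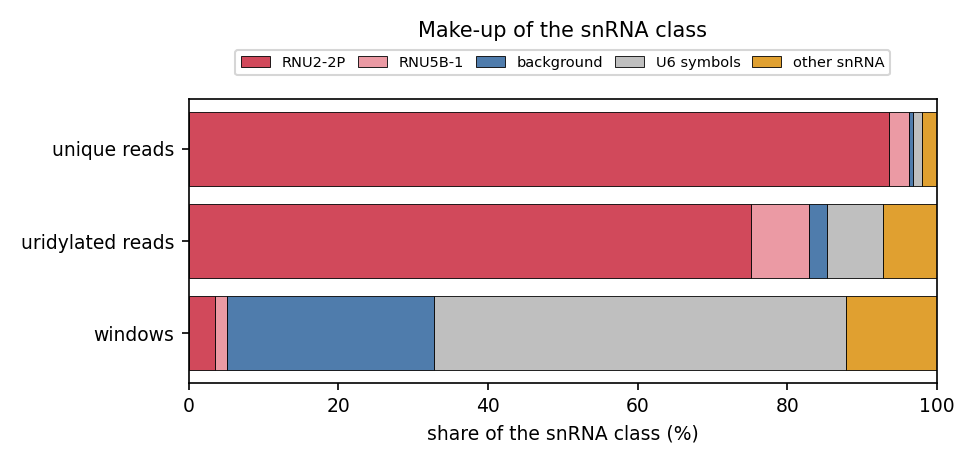
Make-up of the snRNA class in percent of its unique reads, of its uridylated reads and of its windows, by gene group. RNU2-2P takes 93.6% of the unique and 75.1% of the uridylated reads, and RNU5B-1 has a larger share of the uridylated reads (7.88%) than of the unique reads (2.73%).

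Set beside the background, the RNU2-2P and RNU5B-1 windows mostly had lower U+ fractions. They were also deeper, and the genes had been chosen by their number of uridylated reads, which for RNU2-2P lie almost wholly in the inner window. The 16 background windows had 31 to 851 unique reads, with a median of 160, below each window of RNU2-2P and RNU5B-1. Their U+ fractions ran from 16.9 to 92.9% with a median of 67.7%. All 16 exceeded the RNU2-2P inner window, and 13 exceeded both the RNU2-2P 3′ end window and RNU5B-1. The 3 that did not were U1 pseudogenes, RNU1-88P with 11 of 65 reads uridylated (16.9%, 9.72 to 27.8%), RNU1-82P with 28 of 164 (17.1%, 12.1 to 23.6%) and RNU1-77P with 13 of 34 (38.2%, 23.9 to 55.0%). The interval of RNU1-77P holds the values of both the RNU2-2P 3′ end window and RNU5B-1.

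These U1 windows were also the nearest in U+ fraction. RNU1-77P was 2.56 points from the RNU2-2P 3′ end window and 1.30 points from RNU5B-1, and RNU1-88P and RNU1-82P were 6.07 and 6.22 points from the inner window. The next nearest to both RNU5B-1 and the RNU2-2P 3′ end window was RNU2-32P, 8.03 and 6.78 points away. Likeness was taken as the absolute difference of a single pooled measurement, over the 16 background windows.

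The closest relatives of RNU2-2P in the background are its 6 U2 pseudogenes, which derive from copies of the U2 RNA scattered in the genome. All 6 had a higher U+ fraction than either RNU2-2P window, from 47.6 to 92.9% with a median of 57.2%, at 296 to 851 unique reads. Against the inner window this followed from the study's selection for a frequency over 25%, which all 6 passed on the pooled counts. RNU2-32P was lowest with 225 of 473 reads uridylated (47.6%, 43.1 to 52.1%). RNU2-25P had the most uridylated reads, 748 of 851 (87.9%, 85.5 to 89.9%). RNU2-70P was highest with 313 of 337 (92.9%, 89.6 to 95.2%). The 9 U1 windows spread more widely, from 16.9 to 90.3% with a median of 69.5%, and were shallower at 31 to 205 reads. Among them RNU1-28P had the most uridylated reads, 170 of 205 (82.9%, 77.2 to 87.5%), and RNU1-43P the highest fraction, 28 of 31 (90.3%, 75.1 to 96.7%). The only U4 window, RNU4-82P, had 27 of 31 (87.1%, 71.1 to 94.9%). With no U5 window in the background, RNU5B-1 had no relative of its own family to be set against.

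Over the snRNA class deeper windows had lower U+ fractions, but within the background the relation was weak. Over the 58 snRNA windows Spearman's rho of unique reads and U+ fraction was -0.438, over the 19 windows of both genes and the background -0.319, and over the 16 background windows alone -0.0677. The windows share the same pooled libraries, so these values describe the table only. The part that depth has in the low U+ fraction of RNU2-2P was not tested.

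**Figure D3:**
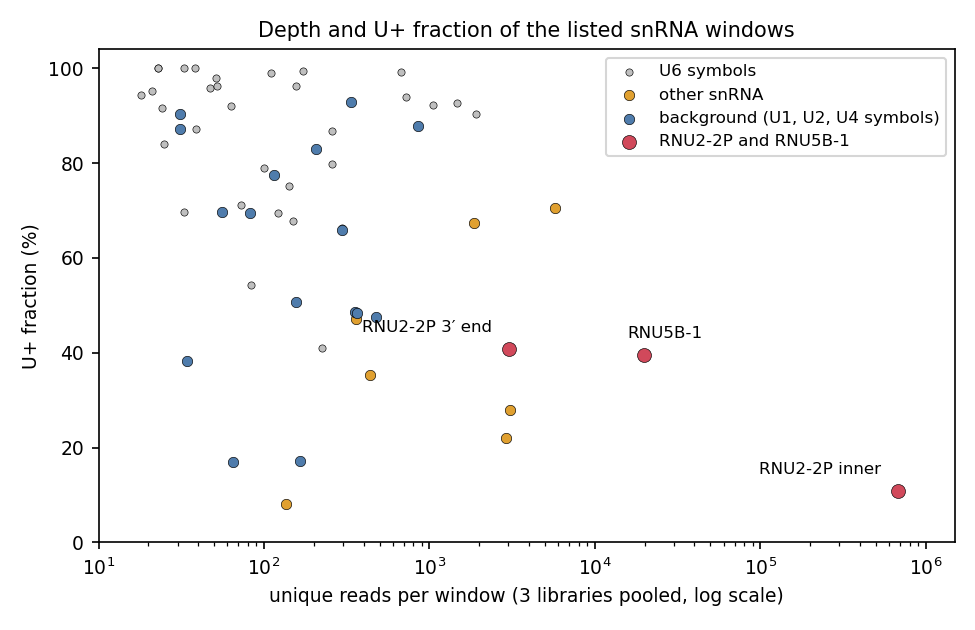
U+ fraction in percent against unique reads per window (logarithmic axis) for the 58 listed snRNA windows, with RNU2-2P and RNU5B-1 in red, background windows in blue, U6 symbols in grey and other snRNA in orange. The inner window of RNU2-2P stands alone at 678516 reads and 10.9%, and the deepest U6 window has 1904 reads.

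The study had kept windows in which a uridylation frequency over 0.25 had a posterior of at least 0.95, multiplied over the libraries. Recomputed on the pooled counts, 2 of the 3 windows of RNU2-2P and RNU5B-1 passed, where 96.8% of all 1533 windows did. The RNU2-2P inner window did not, with a posterior that rounds to 0. In all, 36 windows of the table had a U+ fraction under 25%, 5 of them snRNA. A pooled fraction under 25% requires that at least 1 library lay under 25% in the counts given. By the study's formula such a library cannot reach a posterior of 0.95, so the product cannot either. On these counts the RNU2-2P inner window thus fails the selection as described, and how it entered the table was not tested. In the background, 14 of 16 windows passed, all but RNU1-88P and RNU1-82P.

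The windows lie at different places in their RNAs. The annotated RNU2-2P RNA has 191 nt (chr11:62609091-62609281, minus strand). Its inner window covers nt 33 to 82, so it starts at the branch-site pairing bases and ends 109 nt before the 3′ end. The 3′ end window covers the last 9 nt of the RNA and 41 nt past it. RNU5B-1 RNA has 116 nt (chr15:65597015-65597130, plus strand), and its window covers nt 36 to 85, which ends 31 nt before the 3′ end. Hence 1 of the 3 windows reaches beyond an annotated 3′ end, and the others lie wholly inside the RNA. How reads were assigned to windows is not stated, so the 3′ ends of the reads may lie outside the window that counts them. RNU2-2P is overlapped by 5 windows of the 50 nt grid, of which 2 are listed, and RNU5B-1 by 3, of which 1 is listed. The other windows of the grid were not analysed here. Both RNU2-2P windows lie in the first exon of WDR74, an annotated untranslated region on the same strand (chr11:62609041-62609281). Reads of either window, inside the RNA or past its 3′ end, therefore cannot be told apart from WDR74 by position. The RNU5B-1 window overlaps no other annotated gene.

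In the background, 12 of 16 windows lay wholly inside the RNA and 4 held an annotated 3′ end, all of U1 symbols. Of these, 2 ran past the end to a length like that of RNU2-2P. RNU1-28P, with 32 nt past the end, had 82.9%. RNU1-89P, with 34 nt past the end, had 79 of 156 reads uridylated (50.6%, 42.9 to 58.4%). The RNU2-2P 3′ end window, at 40.8% with 41 nt past the end, was below both values. The other two, with 4 nt and 1 nt past the end, lay on either side of it, RNU1-34P at 69.5% and RNU1-82P at 17.1%.

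The 6 U2 pseudogene windows could be placed on the U2 RNA by alignment to RNU2-2P. Of these, 4 overlapped the inner window. RNU2-32P shared 40 nt with it, RNU2-23P 37 nt, RNU2-25P 28 nt and RNU2-68P 12 nt. RNU2-17P and RNU2-70P lay further 3′ and shared none. The windows with the longest overlap were near the low end of the U2 pseudogenes, RNU2-32P at 47.6% and RNU2-23P at 48.6% (173 of 356, 43.4 to 53.8%), and RNU2-68P was at 48.4% (177 of 366, 43.3 to 53.5%). RNU2-25P at 87.9% also overlaps the inner window. The part that place on the RNA has in these fractions was not tested. RNU2-17P had 65.9% (195 of 296, 60.3 to 71.0%).

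A further window with U2 sequence is listed as a long non-coding RNA, LINC00910 (ENSG00000188825), and was singled out after its value had been seen. It lies at chr17:41464700-41464749 on the minus strand and aligns to nt 37 to 86 of the U2 RNA, 46 nt of which are in the inner window. Counted from the 5′ end of RNU2-2P, with the RNU2-2P base first, it differs by C78A and G82A. Of its 2161 reads, 698 were uridylated (32.3%, 30.4 to 34.3%), which is above the RNU2-2P inner window and below the U2 pseudogenes. Of all listed windows, 9 matched the U2 RNA, namely the 2 of RNU2-2P, the 6 pseudogenes and this one. For the U5 RNA the only listed match was RNU5B-1 itself, although the genome holds 187 matches to U5 and 189 to U2 of at least 40 nt and 80% identity.

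**Figure D4:**
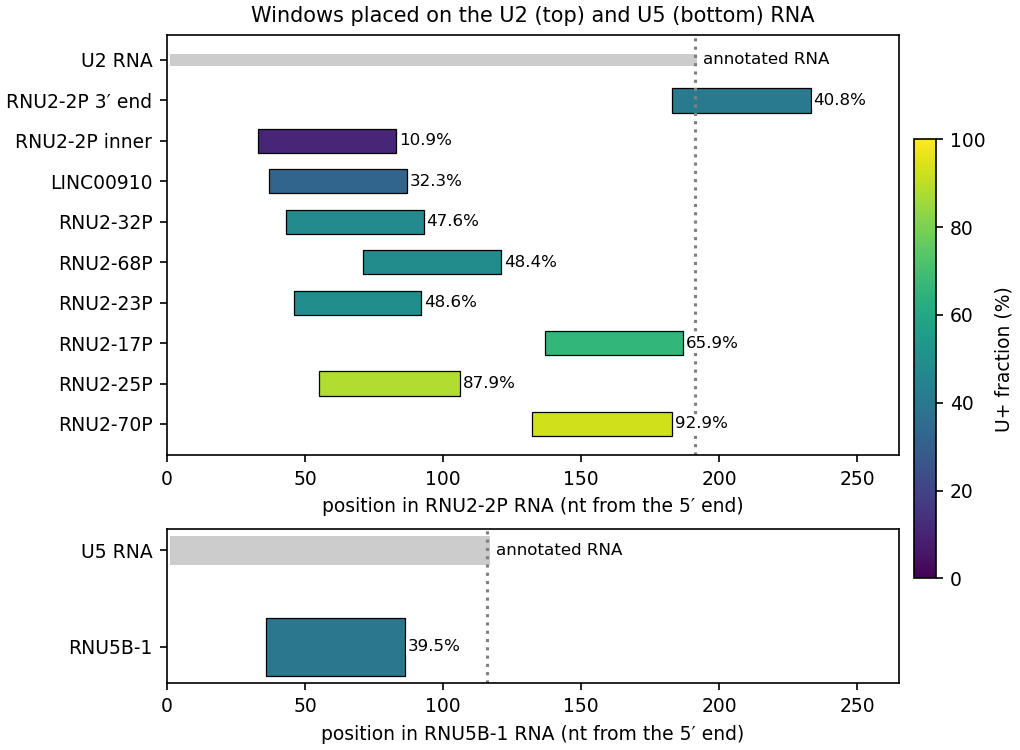
Listed windows placed by alignment along the RNU2-2P RNA (top) and the RNU5B-1 RNA (bottom), in nt from the 5′ end, coloured and labelled by U+ fraction in percent; grey bars are the annotated RNAs and dotted lines their 3′ ends. The inner window of RNU2-2P (10.9%) overlaps LINC00910 (32.3%) and 4 U2 pseudogenes (47.6 to 87.9%), and the 3′ end window alone passes the end of the RNA.

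Only uniquely mapped reads were counted, so near-identical copies bear on which reads could be counted at all. A copy here is a second place in the genome that matches the window over 45 nt or more with no more than 2 differences. The RNU2-2P 3′ end window had 0 copies. The inner window had 3, in RNU2-23P, in RNU2-6P and at the LINC00910 window, and none was identical over 50 nt. RNU5B-1 had 2, RNU5B-2P and RNU5A-1. In the background, 7 of 16 windows had a copy.

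The RNU5A-1 copy is a functional U5 gene nearby on chromosome 15. Set against RNU5B-1 over the window, it differs at a single base, and the identical stretch of 48 nt lies at chr15:65588424-65588471 on the plus strand. A read that lies in the first 48 nt of the window would match both genes equally. The other U5 genes are less alike, with 6 differences in the window for RNU5E-1, 7 for RNU5D-1 and 5 over 49 aligned nt for RNU5F-1. Over the whole RNA, identity to RNU5B-1 was 94.0% for RNU5A-1, 90.5% for RNU5E-1, 87.1% for RNU5F-1 and 84.5% for RNU5D-1. No window of these 4 genes is listed. For U2, the closest match elsewhere in the genome of at least 180 nt had 93.6% identity to RNU2-2P. RNU2-1, the multicopy U2 gene, has 0 transcripts in the GRCh37 annotation used, and where the mapping placed its reads was not tested.

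The fixed set of 22 spliceosomal snRNA genes places both genes among their partners. Of 18 major spliceosome genes, 3 had a listed window, which were RNU2-2P, RNU5B-1 and the U6 gene RNU6-1 with 92 of 224 reads uridylated (41.1%). None of the 4 U1 genes and neither U4 gene had one, which does not say that they had no uridylated reads, since the table lists selected windows only. Of 4 minor spliceosome genes, 3 had a window. RNU11 had 4041 of 5737 reads uridylated (70.4%), RNU12 2275 of 5279 over 3 windows (43.1%, with 27.9, 47.2 and 67.3% in the single windows) and RNU4ATAC, a partner of U6atac, 154 of 437 (35.2%). RNU5B-1 and the RNU2-2P 3′ end window thus had values near those of RNU6-1 and RNU4ATAC, below RNU11 and inside the range of the RNU12 windows, and the inner window of RNU2-2P was below all of them.

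Known snRNA sequence elements were located in RNU2-2P by exact match. The branch-site pairing bases GTAGTA lie at nt 33 to 38, the first bases of the inner window, and occur on the sense strand in 0.522% of all listed windows (0.848% on either strand). The Sm site ATTTTTG lies at nt 99 to 105, between the inner and the 3′ end window. It occurs on the sense strand in 0.13% of all windows (0.326% on either strand). The exact letters of neither motif were found in RNU5B-1, which does not say that its Sm site is missing. These motifs do not overlap each other, and a match is a description of the letters.

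In base composition and folding the windows were not alike. The GC content was 38% in the RNU2-2P inner window, 48% in its 3′ end window and 44% in RNU5B-1, against a median of 48% in the background and 72% in all windows. Predicted with RNAfold, the minimum free energy of the 50 nt was -8.9 kcal/mol for the inner window, -15.8 for the 3′ end window and -8.3 for RNU5B-1. The background median was -9.2 and that of all windows -17.3, so only the RNU2-2P 3′ end window approached the latter. Folded whole, 55.5% of the bases of RNU2-2P and 67.2% of those of RNU5B-1 were paired, and within the windows 60% of the RNU2-2P inner bases and 66% of the RNU5B-1 bases. Of the 9 bases that the RNU2-2P 3′ end window shares with the RNA, 2 were paired (22.2%), in a fold that leaves out the 41 nt past the end. Encoded runs of at least 4 T, within a window or just downstream of it by up to 50 nt, were present for the RNU2-2P inner window and RNU5B-1 and absent for the RNU2-2P 3′ end window, against 31.2% of the background windows and 17.9% of all windows. Their part in the calling of tails was not tested.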

How the data were processed

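The 3 CLIP-seq libraries came from cells labelled HEK293 (HEK293T-Rex in the methods) with overexpressed DIS3L2 D391N, placed in 1 group by GEO's labels. The authors mapped reads to GRCh37/hg19 with Segemehl (the submitters' processing notes also name Subread), trimmed 3′ T runs from unmapped reads, mapped these again, and called a uniquely mapped read uridylated where at least 4 terminal T were not encoded. Their methods drop 50 nt windows with under 20 reads, but the deposited table also holds smaller ones, down to 7 unique reads. The deposited table gives raw counts of unique and of uridylated reads per window, which the authors had pooled without scaling, so the depth of each library is unknown and precision is set by each window's reads. The processing favours high U+ fractions and drops reads that map to several places.

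Here U+ fractions, their 95% Wilson intervals, differences with Newcombe intervals and a posterior with a uniform prior were computed from the pooled counts (Python 3.11.15, pandas 2.3.3, scipy 1.17.1). No test was run, because the genes were chosen by these counts. The interval script was tested on simulated data. Sequence, copies and folding came from the GRCh37 genome and GENCODE release 44 mapped to it, read with pysam 0.24.0, aligned with biopython 1.88 and blastn 2.17.0, and folded with RNAfold 2.7.2. Window starts were read as 1-based. The genes, lists, motifs and named windows were chosen with earlier results of these data known. Named were all windows of both genes; per background family the windows with the most uridylated reads and the highest and lowest U+ fraction; the nearest windows by U+ fraction; and 22 snRNA genes. The other U2 pseudogenes, LINC00910, RNU1-89P and windows in the closing section were chosen after their values were seen. Alternatives were other denominators, frequencies, posteriors, background sets, copy limits and 0-based starts. The sequence of RNU5B-1 is not reported here.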

Additional observations from a re-analysis of the deposited data

How the results depend on the processing

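The U+ fraction of RNU2-2P depended on its inner window, with 10.99% of summed reads, 25.8% as the unweighted mean of its windows and 40.8% without the window with the most unique reads. The share of RNU2-2P and RNU5B-1 in the snRNA class was 83.0% of uridylated reads, 34.9% of these without that window, 96.4% of unique reads, 5.17% of windows, and 97.2% of the uridylated reads of the 3 windows and the background alone. Past the pooled selection were 2 windows, 0 at a frequency over 0.5, 3 at 0.1 and 2 at a posterior of 0.99. With starts read as 0-based, the windows begin at nt 182 (RNU2-2P 3′ end), 32 (RNU2-2P inner) and 37 (RNU5B-1). Copies identical over 50 nt numbered 0 for the RNU2-2P inner window and 0 for RNU5B-1, and copies over 40 nt or more with up to 5 differences 23 and 12, while the 3′ end window had 0 under each limit.

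The background median of 67.7% moved by less than the spread of its windows, whose SD is 24.7 points. It was 58.3% with a minimum of 100 unique reads, 67.7% with 1 window per gene, 57.2% for U2 symbols, 50.6% for all snRNA but U6 and 65.6% for the pooled reads. In alternatives chosen after seeing the data it was 65.9% with the LINC00910 window and 67.8% without windows at a 3′ end. The planned use of the table's own frequency estimate was not run, because the table used here has no such column. No library could be left out and no paired analysis was possible because the counts are pooled and form 1 group. Depth limits the U1 and U4 windows most, down to 31 reads.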

Other observations

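Variant U1 genes lie outside the U1 symbols of the background and were named after their values had been seen. RNVU1-15 had 639 of 2893 unique reads uridylated, a U+ fraction of 22.1%, and RNVU1-14 had 11 of 136, or 8.09%. RNVU1-14 was the one snRNA window with a U+ fraction below the RNU2-2P inner window. The 32 windows of U6 symbols had a median U+ fraction of 92.2%, above each of the 3 windows of RNU2-2P and RNU5B-1. All of these symbols but RNU6-1 end in P, the mark of a pseudogene, and RNU6-1 was the lowest at 41.1%. U6 RNA is made by RNA polymerase III. For transcripts of this polymerase the study states that it could not tell untemplated from encoded 3′ uridines.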
